A study of Mus musculus with 15 samples.

Results

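The 33 genes described here are type I interferon-stimulated genes, taken as a list of gene symbols that leaves out nucleic acid sensors and the GTPases of the interferon-gamma response. All 33 were found by symbol among the 55488 rows of the count table, and all 33 passed the filter on low counts that left 24990 genes for testing. Their transcripts were measured by bulk RNA sequencing in 15 libraries of mouse cerebellum. In the mPPL-001 group (n = 5), YG8JR mice, a transgenic mouse model of Friedreich ataxia, had received blood stem and progenitor cells from YG8JR marrow that were electroporated with the nuclease Cas9 and a pair of guide RNAs. In the mock group (n = 4), YG8JR mice had received such cells electroporated with the same guides but no Cas9. Recipients of both groups were 2.5 to 3.0 months old, were irradiated with 7 Gy on the day before transplant and drank antibiotics for 1 month. The YG8JR group (n = 3) was untreated, and the WT group (n = 3) was wild type and untreated. The age label of all 15 libraries reads as 6 months after transplant. Donor marrow and recipients of both transplanted groups thus carried the YG8JR genotype, and irradiation, antibiotics and cell transfer were shared by the mPPL-001 and mock groups.

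Type I interferons bind a receptor of the chains IFNAR1 and IFNAR2, which activates the kinases JAK1 and TYK2. These phosphorylate STAT proteins, among them STAT2, which acts with IRF9 in the complex ISGF3. The complex binds interferon-stimulated response elements in promoters and switches on genes whose products block viral translation, degrade viral RNA, tag proteins with ISG15 or feed back on the pathway. In brain, microglia, endothelium, astrocytes and neurons can all respond to interferon, and part of the response is present at a low level without infection.

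Library totals ran from 16847875 to 38760543 counts. Each group had libraries in both sequencing batches named by the labels, with 8 libraries in batch A and 7 in batch B, so the model over all libraries has a batch term. The tissue label was checked against defining markers. Gabra6, a GABA receptor subunit of cerebellar granule cells, had 206 to 504 CPM (counts scaled to a common library size) in batch B but 0.0586 to 71.9 CPM in batch A, and Pcp2 of Purkinje cells had 21.1 to 70.9 CPM in batch B but 0.193 to 24.4 CPM in batch A. Several batch A libraries were thus nearly without these cerebellar markers. The library labelled WT replicate 3, the single WT library of batch A, differed from the other WT libraries. The chi-square of the counts per gene was 196 between it and WT replicate 1 and 293 between it and WT replicate 2. It was 97.0 between WT replicates 1 and 2. In the other groups, pairs across the batches ran from 60.7 (mPPL-001 replicates 3 and 5) to 210 (YG8JR replicates 1 and 2). Leaving out the library labelled WT replicate 3 leaves no WT library in batch A. The number of genes that differed between YG8JR and WT was then 2113 higher and 1983 lower, against 30 higher and 6 lower with it. Counts and medians over the members against WT, and the members called, are therefore given with and without it. In bulk tissue fewer cells of a type and less RNA per cell cannot be told apart.

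The promoters are shown because several of the members described below share the response element that ISGF3 binds. RefSeq promoter windows of build GRCm38.p6, each 250 bases before to 50 bases after the gene start, were matched to 24 of the 33 members. The core of that element, GAAA, then any 2 bases, then GAAA, was searched on both strands. It was in 10 of these 24 (41.7%), against 1079 of 27018 genes (3.99%). At least 2 matches, which may overlap, were in 6 of the 24 members and in 72 genes in all (0.266%). The 10 genes were Ifit1, Ifit3, Ifit3b, Stat2, Isg15, Oas1a, Oas3, Rsad2, Bst2 and Trim30a. The motif TTCNNNGAA, the element of STAT dimers, likewise searched, was in 5 of 24 (20.8%) and in 9.55% of all genes. The next lines give the last 200 bases before the gene start on the gene's own strand, with every match to that core on either strand in capitals. Ifit1 lies at chr19:34640689-34640888 (+), Ifit3 at chr19:34583329-34583528 (+), Ifit3b at chr19:34607757-34607956 (+), Isg15 at chr4:156200819-156201018 (-), Bst2 at chr8:71537473-71537672 (-) and Lgals3bp at chr11:118401960-118402159 (-).
Ifit1: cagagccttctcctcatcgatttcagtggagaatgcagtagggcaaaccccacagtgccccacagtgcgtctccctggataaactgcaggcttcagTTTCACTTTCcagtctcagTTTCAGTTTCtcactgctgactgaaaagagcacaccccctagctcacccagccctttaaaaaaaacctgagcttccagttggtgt
Ifit3: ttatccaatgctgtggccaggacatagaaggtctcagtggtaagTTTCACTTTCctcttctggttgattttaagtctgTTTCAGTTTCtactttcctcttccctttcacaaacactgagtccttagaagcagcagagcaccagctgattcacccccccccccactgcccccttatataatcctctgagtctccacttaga
Ifit3b: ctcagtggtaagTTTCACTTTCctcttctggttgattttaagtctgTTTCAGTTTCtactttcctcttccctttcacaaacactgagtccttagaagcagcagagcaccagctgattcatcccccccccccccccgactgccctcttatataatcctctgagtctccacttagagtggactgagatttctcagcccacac
Isg15: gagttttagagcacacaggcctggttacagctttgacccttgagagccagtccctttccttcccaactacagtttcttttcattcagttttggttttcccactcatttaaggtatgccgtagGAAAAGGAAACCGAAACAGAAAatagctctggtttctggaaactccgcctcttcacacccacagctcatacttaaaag
Bst2: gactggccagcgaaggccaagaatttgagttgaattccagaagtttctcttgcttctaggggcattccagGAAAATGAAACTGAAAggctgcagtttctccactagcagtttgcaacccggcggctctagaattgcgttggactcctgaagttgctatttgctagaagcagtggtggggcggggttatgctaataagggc
Lgals3bp: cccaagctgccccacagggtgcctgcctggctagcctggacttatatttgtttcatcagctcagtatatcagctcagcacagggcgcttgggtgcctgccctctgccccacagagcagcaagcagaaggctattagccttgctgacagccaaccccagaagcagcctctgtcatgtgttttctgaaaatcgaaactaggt
The matches of Ifit3 and Ifit3b have the same letters, and the capitals of Isg15 hold 3 overlapping matches. Bst2 and Lgals3bp, the members called in mock against WT with all libraries, are shown together because Bst2 holds 2 overlapping matches and this window of Lgals3bp holds none.

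Levels differed widely between members. Per kilobase of exon and averaged over the 15 libraries, Ifi27 (13.7 CPM per kilobase), Lgals3bp (11.5), Ifit3 (9.04), Stat2 (7.00) and Cmpk2 (6.71) were highest, and Oas3 (0.0785), Mx1 (0.139) and Ifi44 (0.257) were lowest. No member was at 0 in any library, but the counts behind low values were small: 1 for Oas3 and 5 for Ifi27l2a and Ifi35 in WT replicate 2, and 2 for Mx1 in the library labelled WT replicate 3. Some reads cannot be assigned with certainty. Of the 31-base words of the Oas1a exons, 68.8% also occur in other genes, mostly Oas1g, and the share was 61.8% for Ifit3 and 55.2% for Ifit3b, mostly with each other. Parp9 and Dtx3l overlap on opposite strands, and whether counting used the strand is not given in the sources used here.

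The largest differences were between single libraries. Mock replicate 4 had the highest CPM of all 15 libraries for 24 of the 33 members, and WT replicate 2 had the lowest for 23. These were also the libraries with the most counts (38760543) and the fewest (16847875). Depth and level did not run together in all libraries, with 37719880 counts in mPPL-001 replicate 2 and 26453626 in mPPL-001 replicate 5. The part of depth was not tested. Over the 33 members, the mean log2 deviation from the average of the 15 libraries was 0.97 in mock replicate 4. YG8JR replicate 1 (0.58) and mPPL-001 replicate 5 (0.58) came next, and these 3 libraries are all of batch B. At the low end stood WT replicate 2 (-1.36) and the library labelled WT replicate 3 (-0.74), while WT replicate 1 (-0.26) lay beside YG8JR replicate 3 (-0.30) and YG8JR replicate 2 (-0.19). The summed CPM of the 33 members was highest in mock replicate 4 (495) and lowest in the library labelled WT replicate 3 (190).

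**Figure D1:**
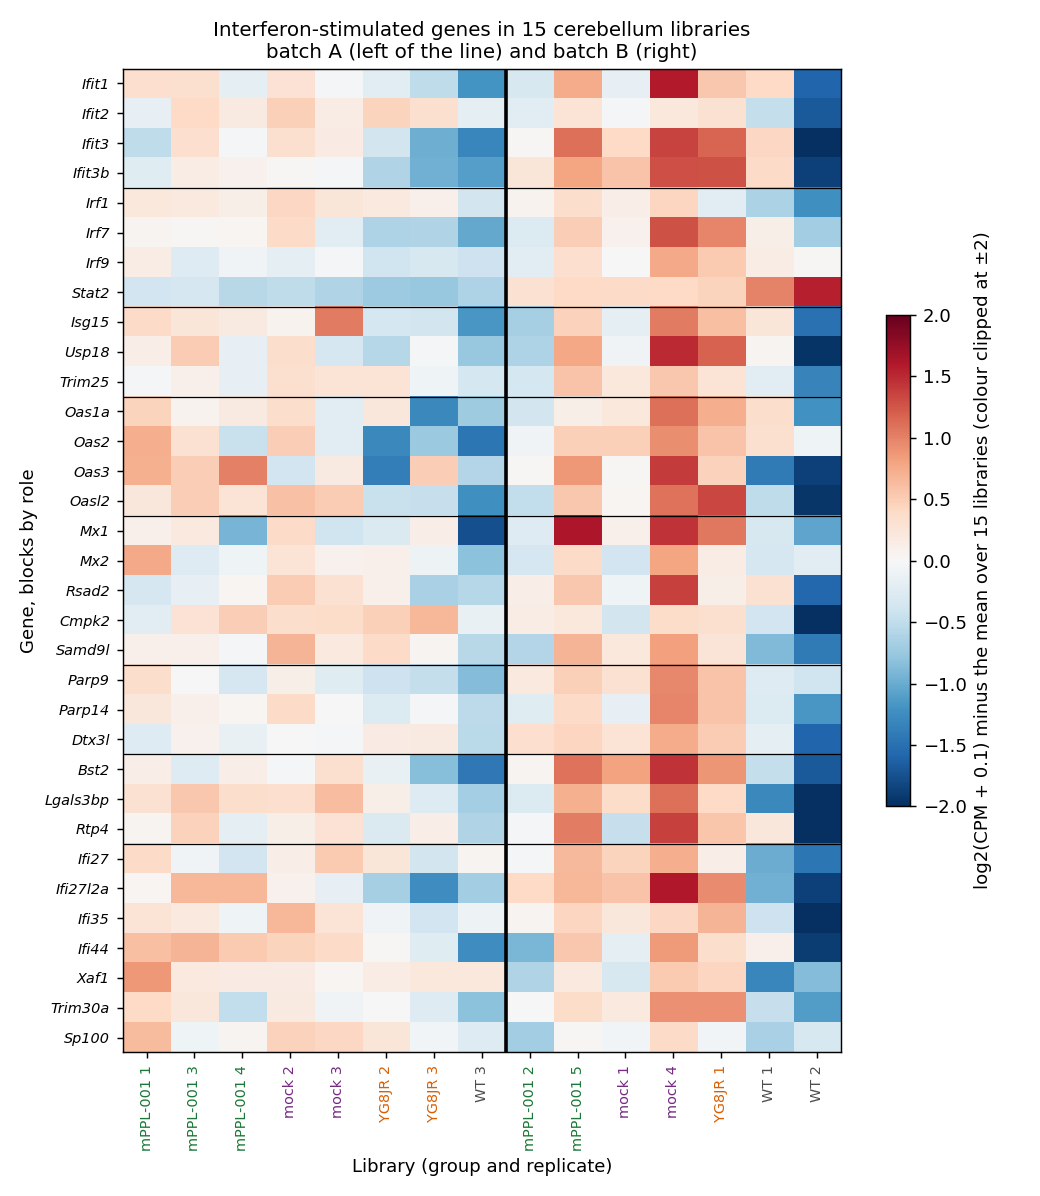
Log2 CPM of each of the 33 members (rows, by role) in each of the 15 libraries (columns, by batch and group), shown as the deviation from the member's mean over the libraries. Mock replicate 4 was the highest library for 24 members and WT replicate 2 the lowest for 23.

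The members did not vary to the same extent within a group. With group and batch taken out, Rtp4, a receptor transport protein induced by interferon, had the widest spread between libraries (SD 0.99 on the log2 scale), followed by Usp18 (0.85), Ifit3 (0.83), Mx1 (0.82) and Ifit1 (0.79). Stat2 (0.17), Irf1 (0.21), Irf9 (0.28) and Parp9 (0.29) varied least. Mx1, a GTPase that restricts influenza virus in mouse, had 1.49 CPM in mPPL-001 replicate 5, its highest library, and 0.0532 CPM in the library labelled WT replicate 3, its lowest.

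The comparison of mPPL-001 with mock sets edited against unedited donor cells in irradiated recipients, but the groups also differed in other measured ways. Y-linked transcripts (4 genes) summed to 222 to 251 CPM in the mPPL-001 libraries, and to 1.63 and 1.00 CPM in mock replicates 1 and 4, the mock libraries of batch B, beside 221 and 209 CPM in mock replicates 2 and 3. Choroid plexus markers had a median log2 difference of -1.68. Among markers of brain region, it was 0.76 for Purkinje cells, 0.23 for granule cells and -0.60 for brainstem. The part of these in the members' differences was not tested. No member passed the test. With edgeR's quasi-likelihood test and Benjamini-Hochberg adjustment over 24990 genes, 0 of 33 members and 0 of all genes (0%) were called at an adjusted p under 0.05 in either direction. No member had an unadjusted p under 0.05 either, where 1.48% of all genes were higher and 0.656% lower, and DESeq2 called none. Of the 33 estimates 30 were below 0 and 3 above, where 57.3% of all genes were above, and the members' median was -0.15, against 0.04 over all genes tested. That median was -0.02 without mock replicate 4 and -0.34 without mock replicate 1. It was -0.09 within batch A and -0.40 within batch B. The CPM of the groups overlapped for each of the 33 members, while 0.456% of all genes lay wholly above and 0.264% wholly below.

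Samd9l, an antiviral restriction factor for poxviruses, had the smallest p of the members in this comparison. It had 10.4, 6.38, 10.4, 9.35 and 15.6 CPM in mPPL-001 cerebella and 11.2, 15.5, 11.1 and 17.1 CPM in mock cerebella. The groups overlapped, since mPPL-001 replicate 5 was higher than 3 of the 4 mock libraries. The log2 fold change was -0.40 (SE 0.24), with an adjusted p of 0.999 by edgeR's quasi-likelihood test. Rsad2, which encodes viperin, an enzyme that makes a chain-terminating nucleotide, had 2.50, 3.496, 2.82, 3.27 and 4.67 CPM in mPPL-001 and 3.01, 4.57, 3.97 and 8.37 CPM in mock cerebella. Its difference of -0.54 (SE 0.35) included the single high value of mock replicate 4. The nuclear body gene Sp100 (-0.32, SE 0.21), the ubiquitin and ISG15 ligase gene Trim25 (-0.28, SE 0.23) and the mitochondrial protein gene Ifi27 (-0.32, SE 0.28) followed. All of these also had an adjusted p of 0.999 by edgeR.

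No regulator of the pathway was called between the 2 transplanted groups, and nor was any other gene. With the SEs below, this does not show that their levels were equal. Irf7, the factor that amplifies interferon gene transcription, had 4.51, 3.59, 4.42, 4.47 and 6.16 CPM in mPPL-001 cerebella, against 4.61, 5.70, 3.71 and 10.6 CPM in mock cerebella. Its log2 difference was -0.27 (SE 0.32). The 2 groups overlapped, and mock replicate 4 alone lay above all mPPL-001 libraries. Estimates were 0.09 (SE 0.17) for Stat2, -0.11 (SE 0.19) for Irf9, -0.42 (SE 0.44) for Isg15 and -0.21 (SE 0.47) for Usp18, the protease that removes ISG15 and silences the receptor. The adjusted p of each was 0.999 by edgeR's quasi-likelihood test.

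By role, all members were below 0 among the IFIT proteins (4), the ISG15 system (3), the antiviral effectors (5), the PARP and DTX3L group (3) and the membrane and secreted proteins (3). Oas3 (0.24), Stat2 (0.09) and Xaf1 (0.02) were the 3 estimates above 0. The difference between the batches in the effect of mPPL-001 against mock was tested as an interaction and had 0 members called by edgeR, 0 at an unadjusted p under 0.05, and a smallest adjusted p of 0.982. Of all genes 0% were called and 3.23% had an unadjusted p under 0.05.

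**Figure D2:**
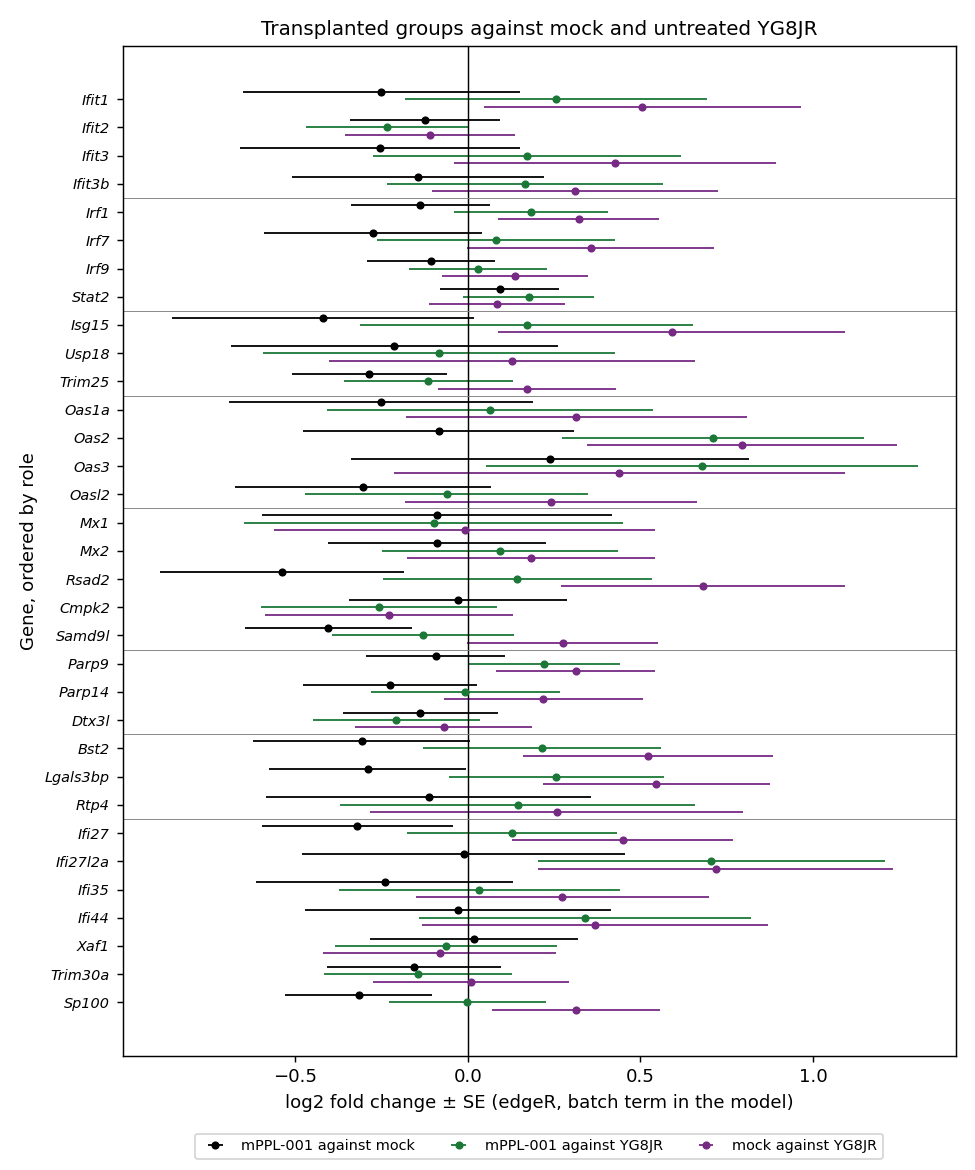
Log2 fold change (x axis) with its SE for the 33 members (y axis, by role) for mPPL-001 against mock, mPPL-001 against YG8JR and mock against YG8JR, from the edgeR fit with a batch term. No member was called in any of the 3 comparisons, and the medians were -0.15, 0.09 and 0.31.

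Both transplanted groups were set against untreated YG8JR cerebella, and these 2 comparisons share the YG8JR libraries. Markers differed here as well. Median log2 differences from YG8JR in mPPL-001 and mock were 0.56 and 2.46 for choroid plexus and -1.31 and -0.05 for brainstem markers. They were 0.65 and 0.15 for Purkinje cell markers and 0.39 and -1.97 for Y-linked transcripts. The part of these in the members' differences was not tested. For mPPL-001 against YG8JR, edgeR's quasi-likelihood test called 0 of 33 members, while it called 0.032% of all genes higher and 0% lower. For mock against YG8JR it called 0 of 33 members, beside 0.036% of all genes higher and 0% lower. In both, 0 members had an unadjusted p under 0.05. DESeq2 called 0 members in both, where it called 0.064% of all genes higher and 0.024% lower for mPPL-001, and 0.048% higher and 0.012% lower for mock. The share of all genes at an unadjusted p under 0.05 was 2.3% higher and 1.04% lower for mPPL-001, and 1.14% higher and 0.412% lower for mock. For mPPL-001 21 members were above 0 (58.9% of all genes), with a median of 0.09 against 0.06 over all genes. For mock 28 members were above 0 (51.9% of all genes), with a median of 0.31 against 0.01 over all genes. The CPM of the groups overlapped for every member in both comparisons, while 1.27% of all genes lay wholly above and 0.724% wholly below YG8JR in mPPL-001, and 1.45% above and 0.888% below in mock.

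Single libraries and batches set the size of these medians. For mPPL-001 against YG8JR the median was 0.32 within batch A and -0.25 within batch B, where YG8JR replicate 1 is the only untreated library. Leaving out YG8JR replicate 3 gave -0.04, and leaving out YG8JR replicate 1 gave 0.24. For mock against YG8JR the median was 0.36 within batch A and 0.01 within batch B. Leaving out mock replicate 4 gave 0.11, and leaving out YG8JR replicate 1 gave 0.54. The batch interaction was tested for both after these values were seen. The edgeR test called 0 members, with a smallest adjusted p of 0.785 for mPPL-001 (4 members at an unadjusted p under 0.05, beside 5.74% of all genes) and 1 for mock (1 member, beside 1.18%). No gene of all 24990 was called in either.

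Oas2, a synthase of the second messenger that activates RNase L, had the smallest p in both comparisons. Its levels were 2.63, 1.46, 1.92, 1.10 and 2.20 CPM in mPPL-001, 2.19, 2.22, 1.302 and 3.03 CPM in mock and 2.33, 0.574 and 0.878 CPM in YG8JR cerebella. Both YG8JR libraries of batch A were below all 9 transplanted libraries, and YG8JR replicate 1 was above 7 of them. The log2 difference from YG8JR was 0.71 (SE 0.44, adjusted p = 0.966 by edgeR) in mPPL-001 and 0.79 (SE 0.45, adjusted p = 1 by edgeR) in mock. Ifi27l2a, a small relative of Ifi27, had 1.21, 1.58, 1.92, 1.93 and 1.92 CPM in mPPL-001, 1.80, 1.25, 1.04 and 3.80 CPM in mock and 2.36, 0.7102 and 0.439 CPM in YG8JR cerebella. It showed the same layout, with YG8JR replicate 1 among the high libraries and YG8JR replicates 2 and 3 at the bottom. Oas3 (0.68, SE 0.62), Parp9 (0.22, SE 0.22) and Ifit2 (-0.23, SE 0.23) were the next members for mPPL-001 against YG8JR. For mock against YG8JR the next were Lgals3bp (0.55, SE 0.33), Rsad2 (0.68, SE 0.41), Bst2 (0.52, SE 0.36) and Ifi27 (0.45, SE 0.32).

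Among regulators, the difference of mPPL-001 from YG8JR was 0.08 (SE 0.34) for Irf7, 0.18 (SE 0.19) for Stat2, 0.03 (SE 0.20) for Irf9, -0.08 (SE 0.51) for Usp18 and 0.17 (SE 0.48) for Isg15. The difference of mock from YG8JR was 0.36 (SE 0.36) for Irf7, 0.08 (SE 0.20) for Stat2, 0.14 (SE 0.21) for Irf9, 0.13 (SE 0.53) for Usp18 and 0.59 (SE 0.50) for Isg15. Their edgeR adjusted p-values were 0.966 or more.

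Against WT nearly all members had estimates above 0 in each of the 3 YG8JR groups, but few differences passed the test. These 3 comparisons share the WT libraries. Of the 33 estimates 32 were above 0 in each comparison, beside 51.9% of all genes for mPPL-001, 48.3% for mock and 47.7% for YG8JR. The median was 0.88 for mPPL-001 (0.02 over all genes), 1.12 for mock (-0.02) and 0.83 for YG8JR (-0.04). The edgeR quasi-likelihood test called 0 members for mPPL-001, where it called 0.216% of all genes higher and 0.016% lower. It called 2 members higher and 0 lower for mock, where it called 0.384% of all genes higher and 0.028% lower. It called 0 members for YG8JR, where it called 0.12% of all genes higher and 0.024% lower. At an unadjusted p under 0.05, 20 members were higher for mPPL-001 (8.83% of all genes), 26 for mock (11.4%) and 14 for YG8JR (10.8%), and 1 member was lower in each comparison. DESeq2 called 9 members higher for mPPL-001 (1.78% of all genes), 20 for mock (4.76%) and 10 for YG8JR (3.85%), and it called 0 lower for mPPL-001 (0.84%), 1 for mock (5.83%) and 0 for YG8JR (5%).

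**Figure D3:**
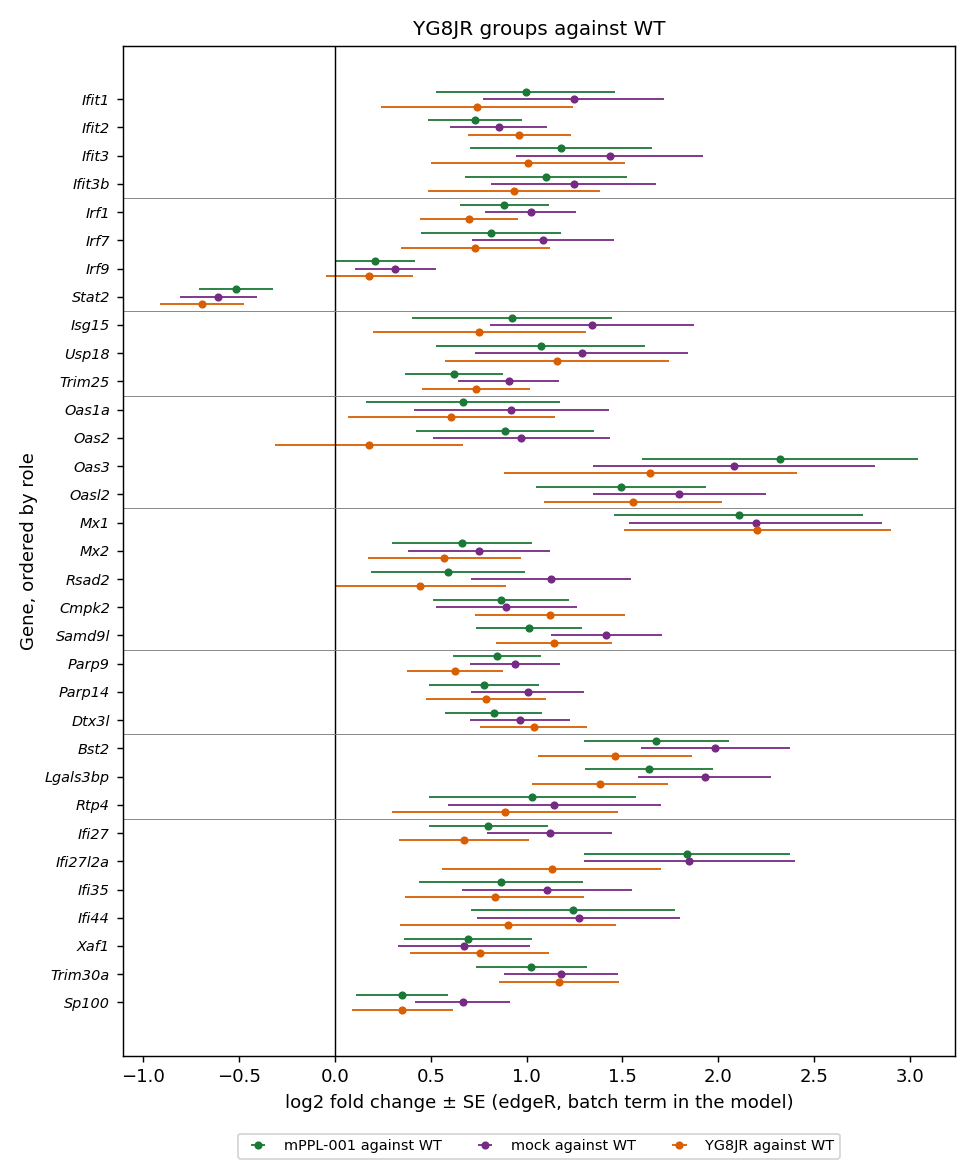
Log2 fold change (x axis) with its SE for the 33 members (y axis, by role) in mPPL-001, mock and YG8JR cerebella against WT, from the edgeR fit with a batch term. In each comparison 32 members lie right of 0, and Stat2 lies left of it.

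Without the library labelled WT replicate 3, edgeR's quasi-likelihood test called 8 members higher and 1 lower for mPPL-001, where 4.74% of all genes were higher and 2.19% lower. It then called 16 members higher and 1 lower for mock (9.68% and 8.96% of all genes), and 8 members higher and 1 lower for YG8JR (8.14% and 7.64%). The median was 1.10 for mPPL-001, 1.20 for mock and 1.05 for YG8JR, with 32, 32 and 31 members above 0. The higher members were Lgals3bp, Bst2, Samd9l, Ifi27 and Dtx3l in all 3 comparisons, with Irf1, Oas3 and Ifi27l2a in mPPL-001 and mock, and Ifit2, Trim30a and Xaf1 in mock and YG8JR. Oasl2, Parp9, Parp14, Trim25 and Ifi35 were called in mock alone, and the difference of these from the other groups was not tested. The member called lower was Stat2 in each. The member below 0 beside Stat2 was Oas2 in YG8JR (-0.16). Without WT replicate 2, the lowest library, the median was 0.66 for mPPL-001, 0.88 for mock and 0.61 for YG8JR, and 0 members were called. Within batch A, where the library labelled WT replicate 3 is the only WT one, the median was 0.92 for mPPL-001, 0.86 for mock and 0.53 for YG8JR. Within batch B it was 0.97, 1.24 and 1.26 in the same order of groups. The CPM of the groups did not overlap, with WT lower, for 8 of 33 members in mPPL-001 (2.88% of all genes), 16 in mock (5.88%) and 12 in YG8JR (8.18%). Without the library labelled WT replicate 3 this held for 13 members in mPPL-001 (14.3% of all genes), 18 in mock (17%) and 16 in YG8JR (21.6%), and Stat2 was then the single member with WT wholly higher (14.8%, 21.4% and 26.8% of all genes in the same order). With all 3 WT libraries no member had WT wholly higher, against 1.72%, 5.86% and 9.78% of all genes. The difference between the batches in YG8JR against WT, tested after these values were seen, had 0 members called by edgeR (5 at an unadjusted p under 0.05, beside 5.2% of all genes) and a smallest adjusted p of 0.732, and 0 of all genes were called.

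Lgals3bp and Bst2 were the 2 members that edgeR called higher in mock against WT with all libraries, where it called 0.384% of all genes higher. Lgals3bp encodes a secreted glycoprotein that binds galectins, and it had 35.4, 23.6, 41.8, 36.4 and 47.1 CPM in mPPL-001, 37.1, 36.2, 44.0 and 61.6 CPM in mock, 37.7, 30.9 and 23.8 CPM in YG8JR and 11.7, 5.52 and 17.8 CPM in WT cerebella. All 12 YG8JR-genotype libraries were above all 3 WT libraries. Group means were 36.9 ± 8.77 CPM in mPPL-001, 44.7 ± 11.8 CPM in mock, 30.8 ± 6.96 CPM in YG8JR and 11.7 ± 6.16 CPM in WT (SD, n = 5, 4, 3 and 3). The log2 fold change was 1.64 (SE 0.33, adjusted p = 0.0727 by edgeR's quasi-likelihood test) in mPPL-001, 1.93 (SE 0.35, adjusted p = 0.0245) in mock and 1.38 (SE 0.36, adjusted p = 0.114) in YG8JR. In mock it was 1.17 within batch A and 2.51 within batch B. Without the library labelled WT replicate 3 it was 2.20 (adjusted p = 0.00777 by edgeR) in mPPL-001, 2.45 (adjusted p = 0.0028) in mock and 1.94 (adjusted p = 0.00979) in YG8JR.

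Bst2 encodes tetherin, which holds budding virus particles at the cell surface. It had 2.71, 2.55, 2.04, 2.72 and 5.33 CPM in mPPL-001, 4.38, 2.41, 3.09 and 6.86 CPM in mock, 4.63, 2.21 and 1.32 CPM in YG8JR and 1.75, 0.703 and 0.852 CPM in WT cerebella. Every mPPL-001 and mock library was above the 3 WT libraries, while YG8JR replicate 3 lay below WT replicate 1. The log2 fold change was 1.68 (SE 0.38, adjusted p = 0.0969 by edgeR's quasi-likelihood test) in mPPL-001, 1.99 (SE 0.39, adjusted p = 0.039) in mock and 1.46 (SE 0.40, adjusted p = 0.121) in YG8JR. In mock it was 1.69 within batch A and 2.18 within batch B. With that WT library left out it was 1.85 (adjusted p = 0.0362 by edgeR) in mPPL-001, 2.15 (adjusted p = 0.0132) in mock and 1.64 (adjusted p = 0.0399) in YG8JR. Both calls rest on single libraries: leaving out any 1 of the mock or WT libraries changed the number of members called higher in mock. Leaving out mock replicate 1 or 2 gave 1 (Lgals3bp). Leaving out mock replicate 3, mock replicate 4, WT replicate 1 or WT replicate 2 gave 0, and leaving out the library labelled WT replicate 3 gave 16.

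**Figure D4:**
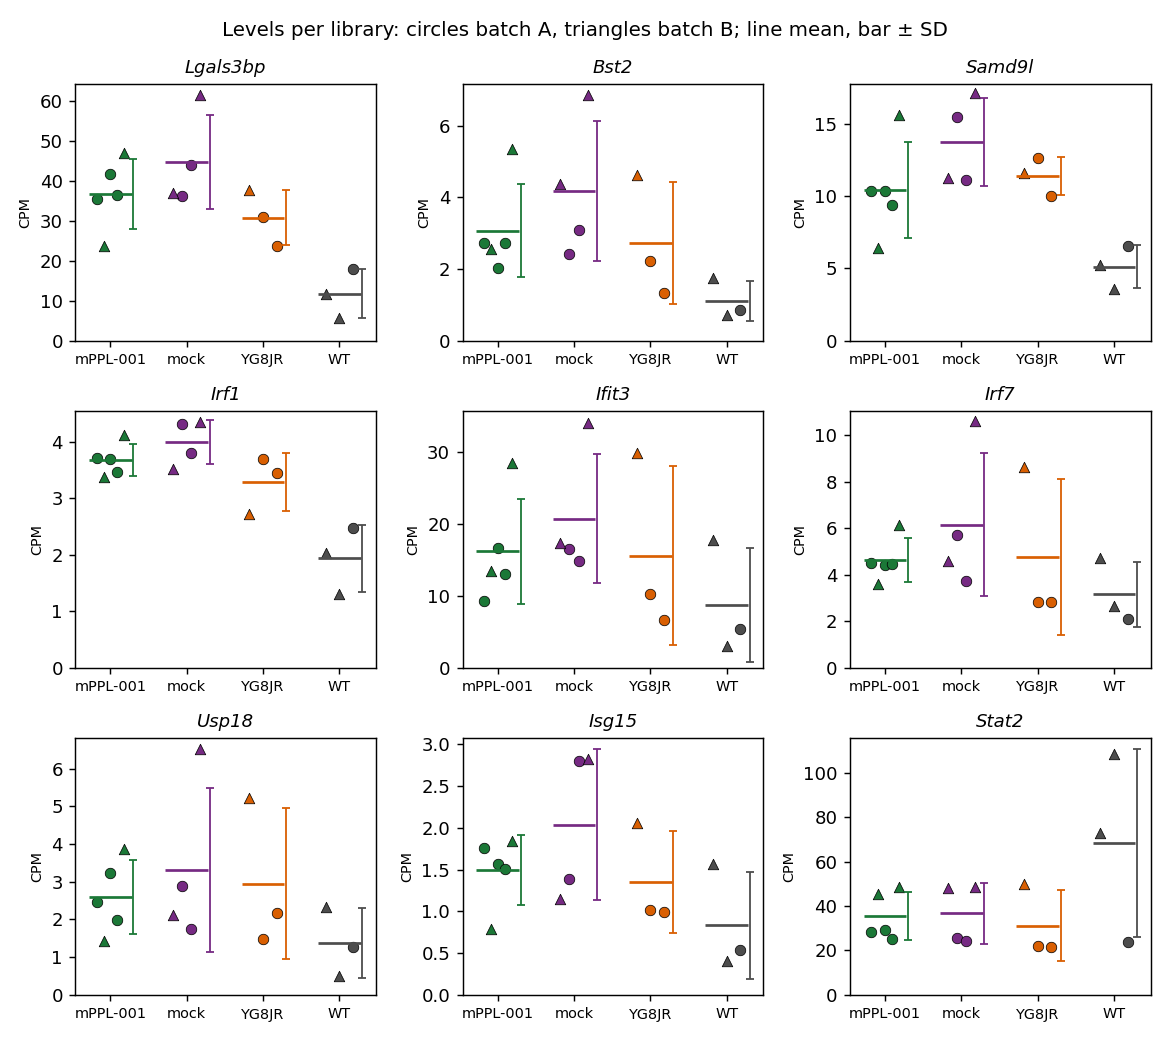
CPM (y axis, from 0) of the members shown in single panels, by group (x axis), with 1 point for each library and the group mean ± SD. Lgals3bp was higher in all 12 YG8JR-genotype libraries than in the 3 WT libraries, and Stat2 was highest in WT replicates 1 and 2.

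The next members by p in mock were Samd9l, Irf1 and Parp9. Samd9l had 11.6, 12.6 and 10.0 CPM in YG8JR and 5.20, 3.56 and 6.55 CPM in WT cerebella, beside the mPPL-001 and mock values given above. Each mock and YG8JR library was above each WT library, and mPPL-001 replicate 2 alone fell among the WT values. Its log2 fold change against WT was 1.01 (SE 0.28, adjusted p = 0.16 by edgeR) in mPPL-001, 1.42 (SE 0.29, adjusted p = 0.0503) in mock and 1.14 (SE 0.30, adjusted p = 0.118) in YG8JR. With WT replicates 1 and 2 alone it was 1.299 (adjusted p = 0.0365 by edgeR), 1.69 (adjusted p = 0.00913) and 1.44 (adjusted p = 0.0229) in the same order. Irf1, a transcription factor that drives antiviral genes, had 3.72, 3.37, 3.70, 3.47 and 4.12 CPM in mPPL-001, 3.53, 4.31, 3.81 and 4.34 CPM in mock, 2.72, 3.69 and 3.45 CPM in YG8JR and 2.03, 1.31 and 2.48 CPM in WT cerebella. It was the steadiest of the members that lay wholly above WT in all 3 groups. The log2 fold change was 0.88 (SE 0.23, adjusted p = 0.148 by edgeR) in mPPL-001, 1.02 (SE 0.24, adjusted p = 0.0667) in mock and 0.70 (SE 0.26, adjusted p = 0.142) in YG8JR. On WT replicates 1 and 2 it was 1.09 (adjusted p = 0.0396 by edgeR) in mPPL-001, 1.22 (adjusted p = 0.0172) in mock and 0.92 (adjusted p = 0.0566) in YG8JR.

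Stat2, the subunit of ISGF3 that carries its activation domain, was the single member below 0 in all 3 comparisons with WT. It had 28.3, 45.4, 29.2, 25.1 and 48.5 CPM in mPPL-001, 48.1, 25.7, 24.1 and 48.7 CPM in mock, 49.8, 22.2 and 21.7 CPM in YG8JR and 73.0, 108 and 24.0 CPM in WT cerebella. The values follow the batch, with 45.4 CPM or more in each batch B library and 29.2 CPM or less in each batch A library. Within batch B both WT libraries were above all others, and within batch A the library labelled WT replicate 3 lay among the YG8JR-genotype ones. The log2 fold change was -0.52 (SE 0.19, adjusted p = 0.255 by edgeR) in mPPL-001, -0.61 (SE 0.20, adjusted p = 0.114) in mock and -0.69 (SE 0.22, adjusted p = 0.13) in YG8JR. Without the library labelled WT replicate 3 it was -0.84 (adjusted p = 0.013 by edgeR) in mPPL-001, -0.91 (adjusted p = 0.00515) in mock and -1.01 (adjusted p = 0.00659) in YG8JR. Within batch A it was 0.20 in mPPL-001 and 0.06 in mock.

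Irf7, the factor that amplifies interferon transcription, had 8.62, 2.81 and 2.84 CPM in YG8JR and 4.72, 2.66 and 2.08 CPM in WT cerebella. The 2 groups overlapped, and YG8JR replicate 1 was the highest of them. Its log2 fold change was 0.81 (SE 0.36, adjusted p = 0.305 by edgeR) in mPPL-001, 1.09 (SE 0.37, adjusted p = 0.119) in mock and 0.73 (SE 0.39, adjusted p = 0.243) in YG8JR. Irf9, the DNA-binding subunit of ISGF3, had 15.5, 11.9, 11.7, 13.3 and 17.7 CPM in mPPL-001, 13.9, 12.3, 13.6 and 23.9 CPM in mock, 20.1, 10.6 and 11.2 CPM in YG8JR and 15.5, 14.3 and 10.5 CPM in WT cerebella. Its groups overlapped throughout, and its difference from WT was 0.21 (SE 0.21) in mPPL-001, 0.32 (SE 0.21) in mock and 0.18 (SE 0.23) in YG8JR.

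The IFIT proteins bind foreign RNA and hold back its translation, and all 4 genes were above 0 against WT, with estimates of 0.73 to 1.18 in mPPL-001, 0.85 to 1.43 in mock and 0.74 to 1.01 in YG8JR. Ifit3 had 9.27, 13.4, 16.7, 13.1 and 28.4 CPM in mPPL-001, 17.4, 16.6, 14.8 and 34.1 CPM in mock, 29.8, 10.2 and 6.68 CPM in YG8JR and 17.7, 3.01 and 5.32 CPM in WT cerebella. WT replicate 1 was well inside the range of the other groups for Ifit3, and the highest library of each YG8JR-genotype group was one of batch B. Ifit2, whose promoter windows hold no match to the core of the response element, was the steadiest of the 4. It had 13.7, 13.3, 20.2, 17.4 and 18.6 CPM in mPPL-001, 15.03, 21.4, 17.1 and 17.9 CPM in mock, 18.9, 21.03 and 19.3 CPM in YG8JR and 11.0, 4.72 and 13.3 CPM in WT cerebella. All mock and YG8JR libraries lay above all WT libraries. Its log2 fold change was 0.96 (SE 0.27, adjusted p = 0.122 by edgeR) in YG8JR, and 1.23 (adjusted p = 0.0247) without the library labelled WT replicate 3.

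In the ISG15 system, Isg15 itself, a small modifier like ubiquitin, had 1.75, 0.790, 1.57, 1.51 and 1.84 CPM in mPPL-001, 1.14, 1.38, 2.80 and 2.83 CPM in mock, 2.06, 1.01 and 0.995 CPM in YG8JR and 1.57, 0.402 and 0.532 CPM in WT cerebella. WT replicate 1 overlapped each of the other groups. Its log2 fold change was 0.92 (SE 0.52, adjusted p = 0.38 by edgeR) in mPPL-001, 1.34 (SE 0.53, adjusted p = 0.146) in mock and 0.75 (SE 0.56, adjusted p = 0.378) in YG8JR. When WT replicate 1 alone stood for WT, it was -0.0023 in mPPL-001 and -0.11 in YG8JR. Usp18 had 2.46, 1.43, 3.23, 1.99 and 3.88 CPM in mPPL-001, 2.12, 2.90, 1.76 and 6.51 CPM in mock, 5.22, 1.48 and 2.17 CPM in YG8JR and 2.34, 0.502 and 1.28 CPM in WT cerebella. The groups again overlapped through WT replicate 1, and the log2 fold change was 1.07 (SE 0.55) in mPPL-001, 1.29 (SE 0.56) in mock and 1.16 (SE 0.58) in YG8JR. Trim25 had 0.62, 0.91 and 0.73 in the same order, and its YG8JR and mock libraries lay above those of WT.

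The OAS genes encode synthases of the second messenger that activates RNase L, and Oasl2 is a relative of the others. All 4 were above 0 against WT, with 0.67 to 2.32 in mPPL-001, 0.92 to 2.08 in mock and 0.18 to 1.64 in YG8JR. Oasl2 had 10.1, 6.11, 12.2, 10.5 and 12.6 CPM in mPPL-001, 8.88, 12.97, 12.3 and 18.5 CPM in mock, 21.8, 6.34 and 6.21 CPM in YG8JR and 6.04, 2.16 and 3.62 CPM in WT cerebella. No library of the other groups was as low as a WT library, though mPPL-001 replicate 2 and WT replicate 1 nearly met. The log2 fold change was 1.49 (SE 0.44, adjusted p = 0.181 by edgeR) in mPPL-001, 1.80 (SE 0.45, adjusted p = 0.0755) in mock and 1.55 (SE 0.47, adjusted p = 0.126) in YG8JR. In mock it was 1.89 (adjusted p = 0.0389 by edgeR) without the library labelled WT replicate 3. Oas3 had the highest estimate of the members in mPPL-001 (2.32, SE 0.72) but only 0.0502 to 0.266 CPM in WT, so few reads stand behind that value.

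Among the antiviral effectors, Cmpk2, a mitochondrial nucleotide kinase that neighbours Rsad2, had 21.9, 28.2, 31.2, 36.0 and 29.3 CPM in mPPL-001, 19.7, 32.4, 32.9 and 33.1 CPM in mock, 31.7, 35.5 and 40.3 CPM in YG8JR and 19.6, 4.22 and 22.9 CPM in WT cerebella. The YG8JR libraries lay above all WT libraries, and WT replicate 2 was far below every other library. Its log2 fold change was 0.87 (SE 0.36) in mPPL-001, 0.89 (SE 0.37) in mock and 1.12 (SE 0.39) in YG8JR, and each had an adjusted p over 0.05 by edgeR. Mx1 had the highest estimate of the members in mock (2.20, SE 0.66) and in YG8JR (2.20, SE 0.70), from 0.0532 to 0.314 CPM in WT. Mx2 (0.57 to 0.75 over the 3 comparisons) and Rsad2 (0.45 to 1.13) had smaller estimates.

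Parp9 and Dtx3l encode partners in an ADP-ribosylation and ubiquitin complex, and Parp14 encodes a further ADP-ribosyltransferase. All 3 were above 0 against WT, with 0.78 to 0.85 in mPPL-001, 0.94 to 1.01 in mock and 0.63 to 1.04 in YG8JR. Parp9 had 8.27, 7.45, 6.46, 5.09 and 9.06 CPM in mPPL-001, 8.04, 7.05, 5.47 and 12.7 CPM in mock, 9.64, 4.84 and 4.60 CPM in YG8JR and 5.41, 4.87 and 3.49 CPM in WT cerebella. Only the mock libraries were all above WT. The adjusted p of Parp9 by edgeR was 0.159 in mPPL-001, 0.0755 in mock and 0.158 in YG8JR. Dtx3l had 20.02, 15.8 and 15.9 CPM in YG8JR and 12.4, 4.62 and 9.61 CPM in WT cerebella, with no overlap, and its log2 fold change in YG8JR was 1.04 (SE 0.28, adjusted p = 0.118 by edgeR). Without the library labelled WT replicate 3 it was 1.32 (adjusted p = 0.0227 by edgeR), and Parp9 was called in mock (0.98, adjusted p = 0.035).

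Of the remaining members, Trim30a, a TRIM protein that dampens inflammatory signalling in mouse, had 8.68, 6.48, 7.68, 4.64 and 8.51 CPM in mPPL-001, 7.51, 7.43, 6.25 and 12.5 CPM in mock, 12.4, 6.53 and 5.47 CPM in YG8JR and 4.75, 2.96 and 3.67 CPM in WT cerebella. The mock and YG8JR libraries lay above WT, and mPPL-001 replicate 4 lay just below WT replicate 1. Its log2 fold change was 1.02 (SE 0.29, adjusted p = 0.169 by edgeR) in mPPL-001, 1.18 (SE 0.30, adjusted p = 0.0755) in mock and 1.17 (SE 0.31, adjusted p = 0.118) in YG8JR. On WT replicates 1 and 2 it was 1.35 in mock (adjusted p = 0.0256 by edgeR) and 1.34 in YG8JR (adjusted p = 0.0327). Ifi27 was at 19.4 CPM in the library labelled WT replicate 3, beside 9.40 and 6.83 CPM in WT replicates 1 and 2 and 14.4 to 30.8 CPM in the 12 other libraries. Without that library its log2 fold change was 1.51 (adjusted p = 0.0124 by edgeR) in mPPL-001, 1.81 (adjusted p = 0.00347) in mock and 1.41 (adjusted p = 0.0139) in YG8JR. With it the values were 0.80, 1.12 and 0.67. Xaf1, a pro-apoptotic gene, had the same layout, with 6.47 CPM there, beside 2.20 and 3.01 CPM in WT replicates 1 and 2.

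The rest of the pathway was read from lists of interferon ligands, of receptors and signalling genes, and of 45 other interferon-stimulated genes. Of 21 ligand genes only Ifnk passed the count filter, with 28 counts at most in a library, and no sum of counts over the 15 libraries exceeded 13 for any other. It was not called against WT. Of 16 receptor and signalling genes, all tested, edgeR called 0 against WT in each comparison, and 3 in mPPL-001, 3 in mock and 6 in YG8JR had an unadjusted p under 0.05. Of all genes 8.83% were higher and 6.96% lower at that p in mPPL-001, 11.4% and 14.7% in mock and 10.8% and 14.5% in YG8JR. The median of the 16 genes was 0.25 in mPPL-001, 0.35 in mock and 0.33 in YG8JR. Those with the smallest p were Il10rb, a chain of the interferon-lambda receptor, at 0.89, 1.16 and 0.96 in mPPL-001, mock and YG8JR, Irf8 at 0.84, 0.63 and 1.22, and Tyk2 at -0.60, -0.82 and -0.78.

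Of the 45 other interferon-stimulated genes 44 were tested, and edgeR called 0 of them against WT in each comparison. Estimates above 0 numbered 44 in mPPL-001, 43 in mock and 41 in YG8JR (51.9%, 48.3% and 47.7% of all genes), with medians of 0.71, 0.91 and 0.76. An unadjusted p under 0.05 was found for 19, 24 and 19. Of all genes 8.83% were higher and 6.96% lower at that p in mPPL-001, 11.4% and 14.7% in mock and 10.8% and 14.5% in YG8JR. Parp12 (0.71, SE 0.15, adjusted p = 0.0615 by edgeR), Trim12c (1.02, SE 0.23, adjusted p = 0.0645) and Lgals9 (1.45, SE 0.34, adjusted p = 0.0664) had the smallest p in mock against WT. Without the library labelled WT replicate 3, edgeR called 8 of the 44 higher in mPPL-001, 15 in mock and 12 in YG8JR, and of the receptor and signalling genes 0, 2 and 2 higher and 0, 1 and 1 lower. Of all genes 4.74%, 9.68% and 8.14% were then called higher in the same order of groups, and 2.19%, 8.96% and 7.64% lower. Against mock, 14 of the 44 were above 0 in mPPL-001 (57.3% of all genes), with a median of -0.16.

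Markers of most cell types and of brain region differed from WT in step with the members or against them. Microglial markers, which had 15 of 15 genes tested and none at 0, summed to 269 to 401 CPM in mPPL-001, 271 to 419 CPM in mock, 419 to 549 CPM in YG8JR and 87.2 to 300 CPM in WT cerebella. Their median log2 fold change against WT was 0.39 in mPPL-001, 0.61 in mock and 1.00 in YG8JR. Endothelial markers (10 genes, none at 0) summed to 369 to 454 CPM in mPPL-001, 388 to 530 CPM in mock, 395 to 540 CPM in YG8JR and 151 to 369 CPM in WT, and their medians were 0.85, 0.90 and 0.92. Astrocyte markers (10 genes, none at 0) summed to 5566 to 9453 CPM in mPPL-001, 6788 to 9764 CPM in mock, 8293 to 9300 CPM in YG8JR and 3120 to 5815 CPM in WT, with medians of 0.73, 0.90 and 0.86. Markers of marrow-derived and border macrophages (15 genes, 14 tested) summed to 67.6 to 133 CPM in mPPL-001, 69.0 to 159 CPM in mock, 42.8 to 52.9 CPM in YG8JR and 12.1 to 29.7 CPM in WT, with medians of 1.71, 2.35 and 1.02. Apoc2 of that list was at 0 in 14 libraries, and Pf4, Ccr1 and Ccr2 were each at 0 in 1 WT library. WT replicate 2, the library with the lowest members, was also lowest for the microglial, endothelial, astrocyte and macrophage lists. Fibroblast and pericyte markers had medians of 0.78 in mPPL-001, 1.01 in mock and 0.76 in YG8JR, and oligodendrocyte markers had 0.37, 0.53 and 0.65. Granule cell markers were on the other side of 0, with -0.25, -0.70 and -0.98, Purkinje cell markers had 1.42, 0.63 and 0.53, and brainstem markers had -0.04, 0.50 and 1.83. Without the library labelled WT replicate 3 the medians were 0.68, 0.87 and 1.39 for microglia, 2.49, 2.85 and 1.62 for macrophages, -0.42, -0.64 and -0.85 for granule cells and 1.47, 1.85 and 2.18 for brainstem. Y-linked transcripts summed to 0.0586 CPM in YG8JR replicate 3 and to 253 and 198 CPM in the other YG8JR libraries, and to 0.0349 and 0.0502 CPM in WT replicates 1 and 2 and 251 CPM in the library labelled WT replicate 3. The part of these cell types, of region and of sex in the members' differences from WT was not tested.

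Choroid plexus markers (10 genes) summed to 7812 CPM in mPPL-001 replicate 5 and to 4990 to 6660 CPM in mock replicates 1, 3 and 4, against 1519 CPM or less in the other 11 libraries, and Cldn2 of the list was at 0 in YG8JR replicate 3. Markers of T, B and NK cells (15 genes, 6 tested) summed to 4.62 to 13.7 CPM in batch B and to 17.6 to 51.1 CPM in batch A, and Ncr1 was at 0 in 14 libraries and Ms4a1 in 13. Not all of the 6 tested genes shared this split of the sums. For batch B against batch A they had a median log2 difference of -0.02, with 3 above 0. Of the 6, edgeR called 1 lower and 0 higher in batch B, where it called 14.9% of all genes lower and 18% higher. Their median against WT was 0.72 in mPPL-001, 0.66 in mock and 0.75 in YG8JR. Between the YG8JR-genotype groups the microglial list was below 0 against YG8JR, with a median of -0.62 in mPPL-001 and -0.39 in mock, while the macrophage list had 0.67 and 1.07. Their part in the members' levels was not tested.

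**Figure D5:**
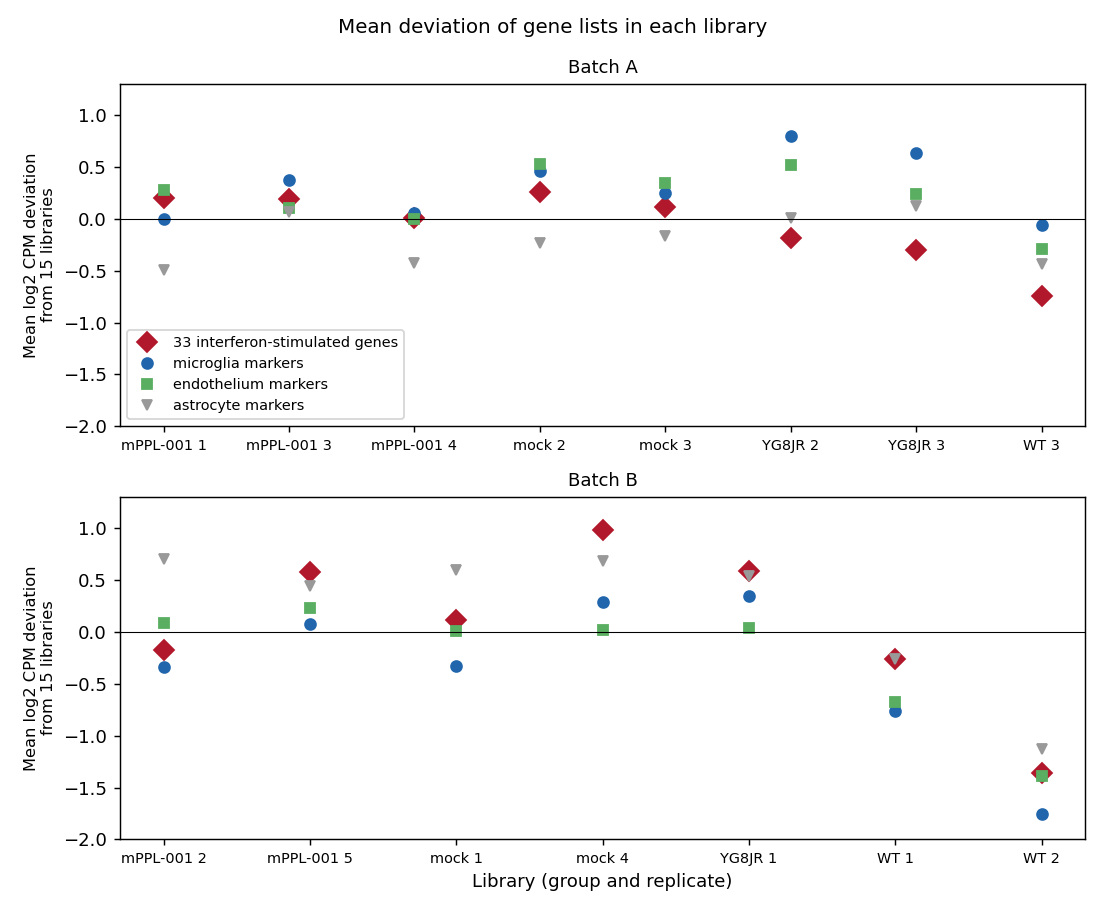
Mean log2 CPM deviation from the 15 libraries (y axis) of the members and of marker lists in each library (x axis), with batch A and batch B in separate panels. WT replicate 2 is the lowest library for the members (-1.36) and for the microglial list (-1.76), and mock replicate 4 is the highest for the members (0.97).

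The batches were compared in the same model. They also differed in markers of brain region. For batch B against batch A the median log2 difference was 2.99 for granule cell, 3.53 for Purkinje cell and -5.10 for brainstem markers. For oligodendrocyte markers it was -0.94. The part of region and cell types in the members' differences between the batches was not tested. Of the 33 members 8 were called higher in batch B than in batch A by edgeR's quasi-likelihood test and 0 lower, where 18% of all genes were higher and 14.9% lower. The 8 were Stat2 (1.11, SE 0.14, adjusted p = 5.25e-05), Parp9 (0.62), Bst2 (0.89), Ifit3b (1.02), Irf9 (0.47), Mx1 (1.28), Ifit3 (0.97) and Irf7 (0.72). In either direction 32.9% of all genes were called, against these 8 of 33 members. Leaving out 1 library gave 2 to 9 members, with 2 without YG8JR replicate 1, 4 without mock replicate 4 or WT replicate 1, and 5 without mPPL-001 replicate 4, mPPL-001 replicate 5, mock replicate 3 or the library labelled WT replicate 3. Lgals3bp (-0.06, SE 0.22) and Samd9l (-0.03, SE 0.19) were near 0 between the batches.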

How the data were processed

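The authors deposited raw read counts per gene as whole numbers, in a single table of all libraries. Per the labels' protocols, RNA of flash-frozen cerebellum was depleted of ribosomal RNA, made into stranded libraries and sequenced from both ends. Per the submitters' processing notes STAR and the genome build GRCm39 were used. The counting tool, and whether it used the strand, is not stated there. Gene symbols came from GENCODE M21 by Ensembl identifier, with 55141 of 55487 mouse identifiers matched (99.4%), and promoter sequences from RefSeq (GRCm38.p6). No coordinates are given for the authors' build.

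Deposited counts were tested with edgeR 4.0.16 under R 4.3.3, by its robust quasi-likelihood fit after TMM normalization. Genes passed edgeR's expression filter (minimum count 10, minimum total 15). All 15 libraries entered 1 model, with a mean for each of the 4 groups and a term for batch, and p-values were adjusted by Benjamini-Hochberg over 24990 genes. A gene was called at an adjusted p under 0.05. CPM are counts scaled to a common TMM-adjusted library size, and log2 CPM used a prior count of 2. The fit was also run on simulated counts with the same spread for all genes and no difference between batches or regions. That run, whose outcome is not given here, does not show how the fit handles such differences. Library totals of 16847875 to 38760543 counts set the precision of low members, and all intervals and SEs are between libraries. The labels do not state that each library is a separate mouse, so the spread behind each p-value may be partly technical. No pair of libraries of a group agreed within sampling noise (smallest chi-square 23.2 per gene).

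The members, the gene lists and the tests were chosen with earlier results of these data known. For each comparison, fold changes and p are given for every member called, or for the 5 with the smallest p, and for Irf7, Stat2, Irf9, Usp18 and Isg15. From other lists up to 4 genes with the smallest p are named. Members shown beyond these were named after their values were seen. Alternatives were RLE factors, no filter on low counts, DESeq2 1.42.0, a model without batch, a block for the replicate number, only the groups compared, each batch alone, a covariate of cerebellar against brainstem markers, each library left out, and, added after the data were seen, WT replicate 1 as the only wild type. Results for some genes, including evidence that bears on how the library labelled WT replicate 3 was labelled, are left out.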

Additional observations from a re-analysis of the deposited data

Results flagged for a closer look

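In groups of 4 or 5 libraries, 7 of 66 sets of member values had 1 library farther from the rest than Dixon's 95% limit allows. Chance gives about 1 in 20 for independent sets. These sets share the same libraries, so that rate does not tell whether 7 is an excess. Of the 7, 3 are high values of mock replicate 4. Ifit1 had 19.8 CPM there against 5.78 to 8.01 CPM in the other mock libraries, Ifit3 had 34.1 CPM against 14.8 to 17.4 CPM, and Irf9 had 23.9 CPM against 12.3 to 13.9 CPM. Mock replicate 1 was low for Cmpk2, with 19.7 CPM against 32.4 to 33.1 CPM. In the mPPL-001 group, replicate 5 was high for Mx1 (1.49 CPM against 0.172 to 0.495 CPM) and for Bst2 (5.33 CPM against 2.04 to 2.72 CPM), and replicate 2 was low for Ifi44 (0.699 CPM against 2.06 to 2.30 CPM).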

How the results depend on the processing

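With edgeR's quasi-likelihood test, no setting called a member for mPPL-001 against mock, mPPL-001 against YG8JR or mock against YG8JR. For mock against WT, 2 members were called higher, and the number was 9 with no filter on low counts, 20 with DESeq2 (which also called 1 lower) and 1 with no batch term. It was 0 with the replicate block, with only the groups compared, within batch A, within batch B, with the covariate of cerebellar against brainstem markers and when WT replicate 1 alone stood for WT, and 0 to 16 with 1 library left out (0 to 1 lower). For YG8JR against WT, 0 members were called, 4 with no filter, 10 with DESeq2 and 0 to 8 with 1 library left out (0 to 1 lower). For mPPL-001 against WT, 0 were called, 1 with no filter, 9 with DESeq2 and 0 to 8 with 1 library left out (0 to 1 lower). For batch B against batch A, 8 were called, 1 with the replicate block and 2 to 9 with 1 library left out. The share of all genes called higher changed as well. For mock, mPPL-001 and YG8JR against WT it was 0.384%, 0.216% and 0.12% in the main fit. With DESeq2 it was 4.76%, 1.78% and 3.85%. Without the library labelled WT replicate 3 it was 9.68%, 4.74% and 8.14%. Shares under the other settings are not given here, so these counts are not read as a result about the members. The cause of the changes was not tested.

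The median log2 fold change of the members kept its sign under every setting run, except for mPPL-001 against YG8JR. There it was -0.08 with the replicate block and -0.25 within batch B. The median of that comparison was also below 0 without mPPL-001 replicate 1 (-0.0099), mPPL-001 replicate 3 (-0.00037) or YG8JR replicate 3 (-0.04). With 1 library left out the members' median ran from -0.34 to -0.02 for mPPL-001 against mock, -0.04 to 0.24 for mPPL-001 against YG8JR, 0.11 to 0.54 for mock against YG8JR, 0.66 to 1.11 for mPPL-001 against WT, 0.84 to 1.35 for mock against WT, 0.59 to 1.18 for YG8JR against WT and 0.18 to 0.44 for batch B against batch A.

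The labels tie no same-numbered libraries to a shared animal, litter or day. Of 19 such pairs 5 correlated above 0.1 after group and batch were taken out (r from -0.41 to 0.36), so the numbers were not read as pairs.

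Of 1210 values of single named members under the alternatives, 1058 kept direction and call, 51 reversed, 65 lost a call and 36 gained one. For mPPL-001 against mock, Stat2 reversed to -0.053 with no batch term and -0.035 within batch B, and Irf9 to 0.052 and Usp18 to 0.13 within batch A. For mPPL-001 against YG8JR, Irf9 reversed to -0.0075 with RLE factors, -0.035 with no filter, -0.0091 with DESeq2, -0.11 with the replicate block and -0.011 with only the groups compared. Irf7 reversed to -0.040 with no batch term and -0.077 with the replicate block, Isg15 to -0.060 with the block and Usp18 to 0.49 within batch A. Within batch B that comparison reversed for Oas2 (-0.35), Ifi27l2a (-0.44), Parp9 (-0.23), Irf7 (-0.83), Stat2 (-0.093), Irf9 (-0.45) and Isg15 (-0.65). For mock against YG8JR, values within batch B reversed for Irf7 (-0.20), Stat2 (-0.058), Irf9 (-0.11), Usp18 (-0.29) and Isg15 (-0.070). Against WT, Isg15 reversed when WT replicate 1 alone stood for WT (-0.11 in YG8JR and -0.0023 in mPPL-001), and Stat2 reversed within batch A (0.20 in mPPL-001 and 0.058 in mock). Isg15 reversed between the batches to -0.085 with the replicate block.
With 1 library left out, reversals gave ranges of -0.23 to 0.052 for Irf9 and -0.41 to 0.17 for Usp18 in mPPL-001 against mock. In mPPL-001 against YG8JR they were -0.10 to 0.52 for Irf7, -0.10 to 0.22 for Irf9 and -0.36 to 0.36 for Usp18. In mock against YG8JR they were -0.027 to 0.34 for Irf9 and -0.29 to 0.64 for Usp18, in YG8JR against WT -0.039 to 0.27 for Irf9, and between the batches -0.015 to 0.41 for Isg15. Depth limits Oas3, Mx1, Ifi27l2a and Ifi35, whose lowest counts were 1, 2, 5 and 5.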
